A study of Mus musculus with 22 samples.

Results

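The response of the hypothalamus to sleep deprivation (SD) was examined in control mice, which carry the intact paternal Prader-Willi critical region (PWScrm+/p+). The comparison holds 8 of the 22 libraries of the series, chosen by their genotype and state labels: 4 from control mice after 6 h of SD ending at ZT6, and 4 from control mice that were undisturbed at ZT6. ZT0 is the beginning of the light period, so ZT6 falls in the time when mice normally sleep. All mice were on the C57BL/6J background, and each sample title carries a different number. The labels give neither sex nor age, nor how the mice were kept awake. The wider study set PWScrm+/p− mice, which lack Snord116 on the paternal chromosome, against these controls at ZT0, at ZT6 and after SD. Those mutant mice and the 3 control mice at ZT0 are used below only to place the control response.

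Enforced waking is known to engage several programmes in the rodent brain. It raises body and brain temperature and often circulating corticosterone, so that heat shock factors and the glucocorticoid receptor become active. Glucocorticoid receptor binds response elements near genes such as Sgk1 and Tsc22d3, heat shock factor 1 drives cytosolic chaperones, and the unfolded protein response drives chaperones of the endoplasmic reticulum. Warmth lowers the cold-inducible RNA-binding proteins Cirbp and Rbm3. In the cortex, prolonged waking is also known for raised immediate early genes such as Fos, Arc and Homer1, while the hypothalamus holds the orexin (Hcrt) and melanin-concentrating hormone (Pmch) neurons that take part in arousal and sleep.

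The 8 libraries held 21741163 to 36417345 counts after SD and 14609454 to 46965594 counts at ZT6. The numbers after the letter S in the sample titles fall into 3 runs, 1 to 4, 5 to 18 and 43 to 46, called index sets here, and the labels do not say what the numbers mark. Each set held both states: SD replicates 1 and 2 with ZT6 replicate 1 in set 1, SD replicate 3 with ZT6 replicates 2 and 3 in set 2, and SD replicate 4 with ZT6 replicate 4 in set 3. Libraries of 1 set but different states were more alike (median Spearman correlation 0.968 over 5 pairs) than libraries of 1 state but different sets (0.942 over 10 pairs), so the set was a term in the fit, where it was itself called for 328 genes (1.78%). Pituitary markers summed to 3.09, 19.0, 0.378 and 30.2 CPM (counts scaled to a common library size) after SD, against 642, 12.1, 1.42 and 13.8 CPM at ZT6, so ZT6 replicate 1 holds pituitary transcripts. Transcripts of the 17 annotated Snord116 genes, which polyA selection captures poorly, numbered 1, 2, 152 and 0 counts after SD and 15, 1561, 14 and 0 counts at ZT6. Snhg14, their host transcript, stood at 439, 517, 408 and 188 CPM after SD, against 385, 602, 1940 and 234 CPM at ZT6, with ZT6 replicate 3 apart from the rest (-0.55 ± 0.51).

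No gene passed an adjusted p under 0.05 in either direction among the 18382 genes tested with edgeR's quasi-likelihood test (0.0% called higher and 0.0% called lower). At an unadjusted p under 0.05, 583 genes differed (3.17%), 297 of them higher after SD (1.62%) and 286 lower (1.56%). DESeq2 with the same design called 13 genes higher (0.0707%) and 6 lower (0.0326%), and with no term for the index set it called 4 higher (0.0218%) and 0 lower. Limma-voom called 1 gene higher (0.00544%), edgeR on the 11 control libraries called 1 higher (0.00504%), and edgeR with no low-count filter called 1 higher and 1 lower (0.00331% each). Sgk1 was called higher in every one of these alternatives. The groups did not overlap, with every SD library above every ZT6 library, in 169 genes (0.919%), and with every SD library below in 149 genes (0.811%). The median log2 fold change of all genes was -0.009, and the median standard error (SE) of a log2 fold change was 0.192 for genes at 10 CPM or more, 0.375 between 1 and 10 CPM and 0.633 under 1 CPM. The labels do not say outright that each library is 1 mouse, so the p-values measure the spread between these samples, which may be technical in part. In bulk tissue fewer cells of a type and less RNA per cell cannot be told apart. Lists are counted over their tested members. Of all genes, 48.5% had a log2 fold change above 0 and 17.5% were higher within all 3 index sets. Lcn2 (glucocorticoid list), Hsf1 (cytosolic chaperones), Fosl1, Egr2 and Egr3 (immediate early), Clock (clock) and Galp and Rln3 (neuropeptides) were too low to be tested. No list member named below passed the threshold in the main edgeR fit, and most were chosen after their values were seen.

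Sgk1, a kinase gene that the glucocorticoid receptor induces directly, had the smallest p of all genes. It stood at 116, 91.0, 116 and 68.2 CPM after SD, against 24.5, 17.7, 24.0 and 16.6 CPM at ZT6. Every SD library lay above every ZT6 library, and the lowest SD library was far above the highest ZT6 library. The log2 fold change was 2.22 ± 0.19 (SE, n = 4 each), with differences of 2.07, 2.49 and 2.03 within index sets 1, 2 and 3. Its adjusted p was 0.0871 with edgeR, above the threshold, 1.33e-21 with DESeq2 and 0.0392 with limma-voom. Over all the other settings its log2 fold change lay between 2.06 and 2.30. With the 3 control libraries at ZT0 added to the fit, the edgeR adjusted p was 0.00192. In a fit of 17 libraries of both genotypes it was 0.108, above the threshold. When single libraries were left out, it ranged from 0.01545 to 0.9999. Sgk1 stood at 21.1, 21.7 and 21.0 CPM in those ZT0 libraries, on the scale of a fit of 17 libraries.

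Sgk1 lies on chr10:21882184-21999903 of GRCm38, and RefSeq gives it 6 start sites with a promoter window (250 bases before to 50 after each start). One window is shown because it holds the word TGTTCT, the core of a glucocorticoid response element, or its reverse complement AGAACA, more than once. The 100 bases below lie before that start, at chr10:21993640-21993739 on the plus strand, with each match in capitals.
Sgk1: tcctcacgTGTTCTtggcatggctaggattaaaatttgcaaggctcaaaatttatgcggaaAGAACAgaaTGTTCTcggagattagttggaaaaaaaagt
The second and the third match stand 3 bases apart as AGAACA and TGTTCT, the palindrome of a full element. That pair, searched for after the Sgk1 sequence had been seen, occurred in the windows of 3 of 27025 genes (0.0111%), and Sgk1 was the 1 gene among the 12812 tested genes with a window that held it. The single word TGTTCT, on either strand, occurred in 21.3% of all genes and in 15.5% of the tested genes with a window. It occurred in 4 of the 17 glucocorticoid-responsive genes with a window (23.5%). A match describes letters in a window and does not show binding.

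Of the 17 tested members of the glucocorticoid-responsive list, 16 had a log2 fold change above 0, against 48.5% of all genes, and the list's median was 0.67. At an unadjusted p under 0.05, 9 were higher and none lower, against 1.62% and 1.56% of all genes. Within all 3 index sets, 15 were higher, against 17.5% of all genes. Tsc22d3, which encodes the anti-inflammatory protein GILZ, stood at 174, 122, 192 and 174 CPM after SD, against 73.4, 122, 72.1 and 58.1 CPM at ZT6. The lowest SD library lay barely above the highest ZT6 library, and the log2 fold change was 1.16 ± 0.24 (edgeR adjusted p = 0.998, DESeq2 adjusted p = 0.00676). Zbtb16, a zinc-finger transcriptional repressor gene, stood at 13.6, 12.6, 17.8 and 18.2 CPM after SD, against 5.50, 5.17, 10.2 and 8.73 CPM at ZT6, and the groups did not overlap (log2 fold change 1.18 ± 0.25, DESeq2 adjusted p = 0.0276). Plin4, a lipid droplet coat gene, stood at 22.7, 9.16, 9.75 and 13.7 CPM after SD, against 1.73, 5.22, 3.61 and 3.53 CPM at ZT6. Its log2 fold change was 2.10 ± 0.51 (DESeq2 adjusted p = 0.00676), and again all SD libraries were the higher ones.

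Smaller differences were found for other members of that list. Fkbp5, the co-chaperone that restrains the glucocorticoid receptor, stood at 45.7, 38.3, 40.3 and 58.4 CPM after SD, against 31.8, 34.4, 18 and 32.3 CPM at ZT6, without overlap (log2 fold change 0.60 ± 0.23). Ddit4, an inhibitor of mTORC1, differed by 0.67 ± 0.20 and Nfkbia, the inhibitor of NF-kappaB, by 0.76 ± 0.28. Klf9, a transcription factor gene induced by glucocorticoids, differed by 0.47 ± 0.17. Per1, a clock gene that also carries a glucocorticoid response element, was the 1 tested member below 0, at -0.04 ± 0.15. The metallothioneins Mt1 and Mt2 varied widely between replicates, with log2 fold changes of 0.20 ± 0.46 and 0.58 ± 0.58. The list's count of 9 at an unadjusted p under 0.05 was 5 without SD replicate 4, without ZT6 replicate 4, without both of these (index set 3) and with all 22 libraries. Its median stayed between 0.57 and 0.93 over all other settings.

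**Figure D1:**
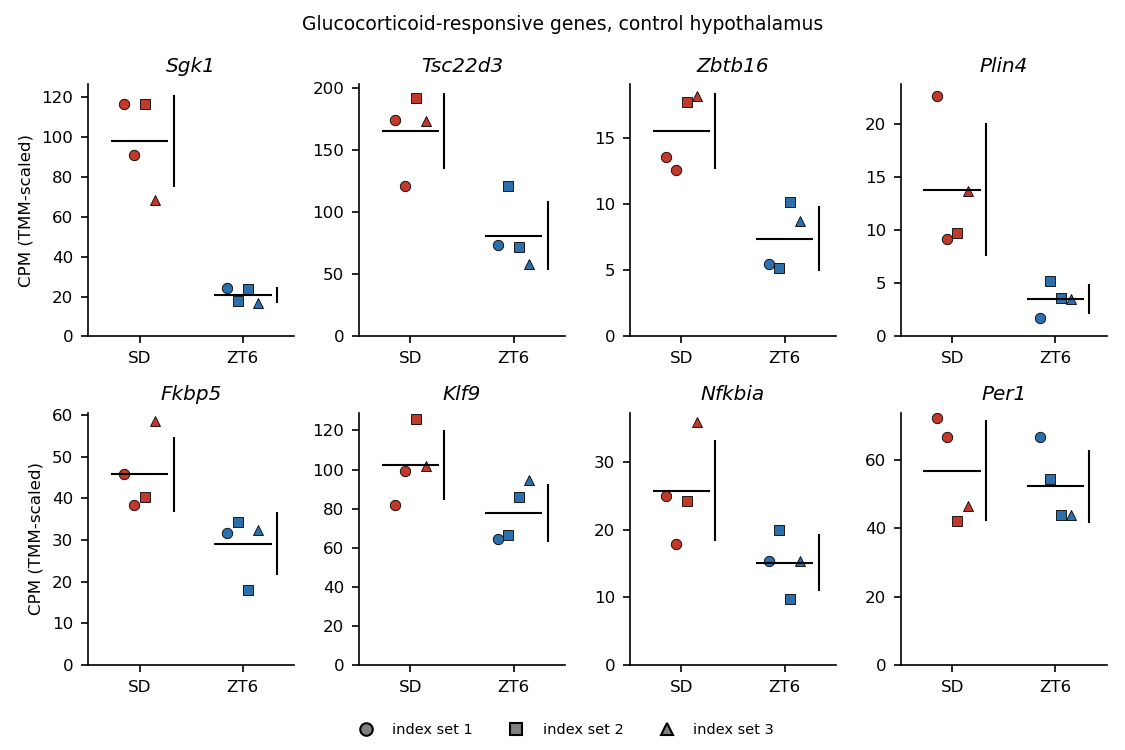
CPM (TMM-scaled, linear axis from 0) of 8 glucocorticoid-responsive genes in the 4 SD and 4 ZT6 control libraries. Points are libraries, their shape gives the index set, horizontal bars are means and vertical bars are ± 1 SD. Sgk1 lay between 68.2 and 116 CPM after SD and between 16.6 and 24.5 CPM at ZT6, while Per1 overlapped.

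Cytosolic chaperones were the next list to lie to one side. Of the 21 tested members, 20 had a log2 fold change above 0, with a median of 0.50, and 12 were higher at an unadjusted p under 0.05 against 1.62% of all genes. Within index sets, 18 were higher in all 3, against 17.5% of all genes. Chordc1, a co-chaperone of HSP90, stood at 73.0, 74.9, 166 and 202 CPM after SD, against 40.4, 65.6, 102 and 89.6 CPM at ZT6. These groups overlap across index sets, but the differences within sets were 0.87, 1.03 and 1.17, and the log2 fold change was 1.00 ± 0.18 (edgeR adjusted p = 0.998, DESeq2 adjusted p = 0.00263). Stip1, which links HSP70 to HSP90, stood at 321, 284, 362 and 687 CPM after SD, against 202, 231, 168 and 406 CPM at ZT6 (0.73 ± 0.16, DESeq2 adjusted p = 0.0337). Replicate 4 was the highest in both states, and it belongs to index set 3 in both.

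Among the chaperones themselves, the inducible Hspa1b stood at 8.53, 8.52, 7.14 and 12.4 CPM after SD, against 5.55, 1.84, 3.19 and 4.37 CPM at ZT6, without overlap (1.17 ± 0.29, DESeq2 adjusted p = 0.171). Hspa1a, its near-identical neighbour, differed by 0.51 ± 0.31, and how reads were shared between these copies is uncertain. Hsph1, an HSP70 exchange factor, stood at 113, 134, 124 and 168 CPM after SD, against 87.0, 93.8, 70.1 and 81.3 CPM at ZT6, again without overlap (0.68 ± 0.17). The constitutive HSP70 Hspa8 differed by 0.52 ± 0.18, the HSP90 genes Hsp90aa1 and Hsp90ab1 by 0.49 ± 0.15 and 0.47 ± 0.17, and the HSP40 genes Dnaja1 and Dnajb1 by 0.57 ± 0.15 and 0.43 ± 0.16. Ahsa1, which activates the HSP90 ATPase, differed by 0.62 ± 0.18. The small heat shock gene Cryab was the 1 tested member below 0 (-0.06 ± 0.40). The count of 12 was 4 with no term for the index set, 1 with all 22 libraries and 6 without index set 3. It was 7, 6 and 6 without SD replicates 1, 3 and 4 and 5 without ZT6 replicate 4, while the median stayed between 0.42 and 0.56 over all other settings.

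Heat shock elements were searched for as the words GAA and TTC in alternation, 3 words with 2 bases between them, on both strands. They occurred in 4 of the 17 cytosolic chaperone genes with a window (23.5%, Chordc1, Hspd1, Hspe1 and Hsph1), against 0.662% of all 27025 genes. The stretch shown lies between Hspe1 and Hspd1, whose products form the mitochondrial chaperonin although they stand in this list. They are transcribed away from each other, so the same element lies before the start of both and was counted for each. It covers chr1:55088015-55088114 of GRCm38 in the direction of Hspe1, with the overlapping matches in capitals.
Hspe1: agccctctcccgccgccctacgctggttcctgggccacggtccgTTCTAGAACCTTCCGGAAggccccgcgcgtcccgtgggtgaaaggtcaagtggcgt
Hspd1 stood at 248, 224, 388 and 490 CPM after SD, against 206, 248, 244 and 370 CPM at ZT6 (0.42 ± 0.14). Hspe1 stood at 94.7, 71.7, 134 and 258 CPM after SD, against 68.3, 197, 72.7 and 120 CPM at ZT6 (0.40 ± 0.36). The groups overlapped for both, and ZT6 replicate 2 was the highest ZT6 library for Hspe1 and not for Hspd1.

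Chaperones of the endoplasmic reticulum had a smaller median. Of 22 tested members, 20 had a log2 fold change above 0 and the median was 0.35. At an unadjusted p under 0.05, 6 were higher, against 1.62% of all genes. Hspa5, the master chaperone BiP, stood at 549, 447, 666 and 1176 CPM after SD, against 389, 483, 385 and 662 CPM at ZT6. The groups overlapped, with SD replicates 1 and 2 below ZT6 replicate 4, and the log2 fold change was 0.58 ± 0.17 (edgeR adjusted p = 0.998, unadjusted p = 0.00999). Pdia6 and Pdia4, which form disulphide bonds in folding proteins, differed by 0.57 ± 0.18 and 0.54 ± 0.15. Hsp90b1, the HSP90 of this compartment, differed by 0.47 ± 0.16 and Xbp1, a transcription factor gene of the unfolded protein response, by 0.40 ± 0.14. Edem1 and Atf6, which act in degradation and sensing, were at -0.26 ± 0.22 and -0.09 ± 0.18. The count of 6 was 3 with no term for the index set and without SD replicate 1. It was 1 without index set 3, without SD replicates 3 or 4, without ZT6 replicate 4 and with all 22 libraries, and 11 without ZT6 replicate 2. The median stayed between 0.25 and 0.48.

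The endoplasmic reticulum stress element was searched for as CCAAT and CCACG with 9 bases between them, on both strands. It occurred in 8 of the 19 members with a window (42.1%), against 0.137% of all 27025 genes. These 8 were Calr, Canx, Creld2, Dnajc3, Hsp90b1, Hspa5, Pdia6 and Syvn1. Of the 8, Hspa5, Pdia6 and Hsp90b1 were among the 6 members at an unadjusted p under 0.05, and the other 5 were not, such as Canx (0.12 ± 0.17) and Syvn1 (0.09 ± 0.14). Hspa5 and Pdia6, and for contrast Canx and Syvn1, are shown with the element in capitals, from chr2:34771984-34772083 and chr12:17266450-17266549 on the plus strand, chr11:50325760-50325859 on the minus strand and chr19:6046476-6046575 on the plus strand of GRCm38.
Hspa5: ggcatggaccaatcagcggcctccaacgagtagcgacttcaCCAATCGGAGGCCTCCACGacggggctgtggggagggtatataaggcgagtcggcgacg
Pdia6: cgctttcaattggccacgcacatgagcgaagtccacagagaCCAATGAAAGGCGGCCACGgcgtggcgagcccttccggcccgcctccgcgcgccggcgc
Canx: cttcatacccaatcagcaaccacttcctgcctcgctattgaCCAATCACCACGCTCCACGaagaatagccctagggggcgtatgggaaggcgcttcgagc
Syvn1: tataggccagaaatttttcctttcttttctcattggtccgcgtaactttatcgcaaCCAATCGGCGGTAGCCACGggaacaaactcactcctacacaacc

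**Figure D2:**
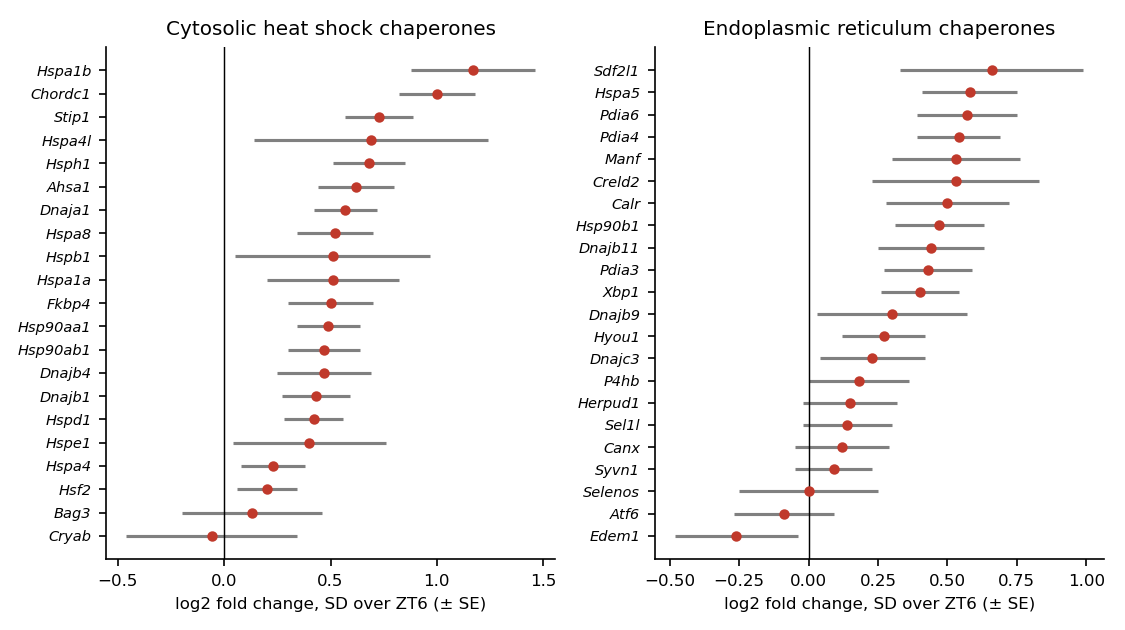
Log2 fold change of SD over ZT6 in control mice (points, ± SE) for each tested cytosolic heat shock chaperone (left) and endoplasmic reticulum chaperone (right). All cytosolic members except Cryab lie right of 0, with Hspa1b at 1.17 and Chordc1 at 1.00, and the endoplasmic reticulum members reach 0.66 at Sdf2l1.

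The cold-inducible RNA-binding genes lay on the other side of 0. Rbm3 stood at 49.0, 47.1, 66.6 and 60.7 CPM after SD, against 78.7, 79.3, 106 and 113 CPM at ZT6, and every SD library was below every ZT6 library. Its log2 fold change was -0.67 ± 0.16 (edgeR adjusted p = 0.998, unadjusted p = 0.00348). Cirbp stood at 71.2, 71.3, 82.1 and 98.8 CPM after SD, against 113, 124, 89.3 and 166 CPM at ZT6 (-0.58 ± 0.16, unadjusted p = 0.00789). Both were lower within all 3 index sets, and their log2 fold changes stayed between -0.79 and -0.53 over all other settings, though neither passed an unadjusted p under 0.05 with all 22 libraries. At ZT0, Cirbp stood at 62.8, 76.9 and 73.8 CPM and Rbm3 at 70.4, 77.5 and 94.8 CPM, on the scale of the 17-library fit.

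Immediate early genes, the usual sign of recent neuronal activity, lay around 0. Of 22 tested members, 9 had a log2 fold change above 0 and the median was -0.11, with a range from -0.42 to 1.16. Fosl2 (0.60 ± 0.17) was the 1 member higher at an unadjusted p under 0.05, against 1.62% of all genes, and none was lower. In 3 members, among them Fosl2 and Bdnf, every SD library lay above every ZT6 library, against 0.919% of all genes. Fos stood at 16.2, 17.3, 11 and 13.3 CPM after SD, against 22.7, 11.4, 14.6 and 11.5 CPM at ZT6, with full overlap (-0.20 ± 0.19). Arc, whose product acts at active synapses, stood at 16.8, 14.1, 8.61 and 15.2 CPM after SD, against 18.9, 12.1, 9.41 and 17.5 CPM at ZT6 (-0.28 ± 0.17). Homer1 differed by 0.09 ± 0.27, Egr1 by -0.16 ± 0.14, Npas4 by -0.12 ± 0.33 and Nr4a1 by -0.24 ± 0.72. Egr2 was too low to be tested, at 0.225 to 1.09 CPM after SD and 0.205 to 0.554 CPM at ZT6. Bdnf, the neurotrophin gene, stood at 27.7, 29.5, 26.2 and 28.4 CPM after SD, against 23.9, 13.4, 24.0 and 19.9 CPM at ZT6, without overlap but with an unadjusted p of 0.0842 (0.41 ± 0.21).

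Genes that report on signalling downstream of activity or stress gave mixed values. Of the 16 tested genes of feedback on the MAP kinase pathway, 13 were above 0, against 48.5% of all genes, with a median of 0.19. In that list 1 gene was higher at an unadjusted p under 0.05, against 1.62% of all genes. That gene was Spry4, an inhibitor of growth factor signalling, at 14, 12.2, 15 and 13.2 CPM after SD, against 9.97, 8.39, 9.23 and 6.17 CPM at ZT6 (0.71 ± 0.19). Of 21 genes of the ATF4 stress response, 13 were above 0, against 48.5% of all genes, with a median of 0.12. In that list 2 members were higher at an unadjusted p under 0.05, against 1.62% of all genes. They were Ddit4 and Psat1, an enzyme of serine synthesis (0.41 ± 0.14), and Atf4 itself differed by 0.31 ± 0.21.

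**Figure D3:**
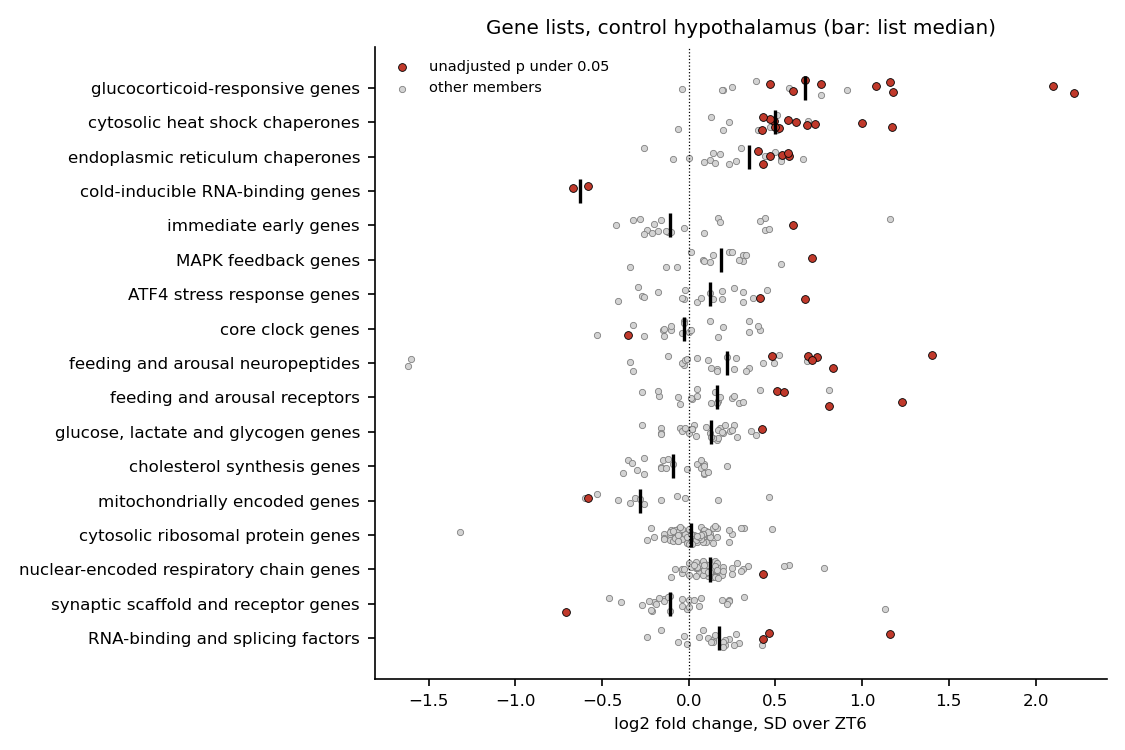
Log2 fold change of SD over ZT6 in control mice for every tested member of 17 gene lists (points; red points have an unadjusted p under 0.05) with the list median (bar). The glucocorticoid, cytosolic chaperone and endoplasmic reticulum chaperone lists have medians of 0.67, 0.50 and 0.35, the cold-inducible pair -0.63, and the immediate early and clock lists -0.11 and -0.03.

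Core clock genes lay around 0. Of 21 tested members, 8 were above 0 and the median was -0.03. At an unadjusted p under 0.05, 1 member was lower, against 1.56% of all genes. That member was Nr1d1, the repressor REV-ERBalpha, at 77.4, 80.2, 46.9 and 63.7 CPM after SD, against 102, 65.8, 55.1 and 78.8 CPM at ZT6 (-0.35 ± 0.13). Per2 differed by -0.14 ± 0.16 and Dbp, an output gene of the clock, by -0.32 ± 0.24. Npas2, a partner of BMAL1, stood at 9.40, 8.69, 8.45 and 8.05 CPM after SD, against 7.60, 4.50, 7.69 and 6.37 CPM at ZT6, without overlap (0.35 ± 0.24).

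Peptide genes of the hypothalamus varied strongly between libraries. Of 29 tested neuropeptide genes, 20 were above 0 and the median was 0.22. At an unadjusted p under 0.05, 6 were higher and none lower, against 1.62% and 1.56% of all genes. The 6 were Hcrt, Pmch, Crh, Nts, Vgf and Grp. The count was 2 with no term for the index set, 0 with all 22 libraries, and 3 without index set 3, without SD replicates 1 or 3, or without ZT6 replicates 1 or 4. The median was 0.07 without SD replicate 4 or without ZT6 replicate 4 and 0.48 without ZT6 replicate 2, and between 15 and 26 members were above 0 when single libraries were left out. Crh, which encodes corticotropin-releasing hormone, the hypothalamic driver of the stress axis, stood at 2.28, 1.97, 9.96 and 4.47 CPM after SD, against 1.16, 2.40, 2.13 and 2.15 CPM at ZT6 (1.40 ± 0.32, unadjusted p = 0.00300, DESeq2 adjusted p = 0.128). The groups overlapped through SD replicate 2 and ZT6 replicate 2. Vgf, an activity-regulated granin, stood at 283, 264, 276 and 504 CPM after SD, against 169, 208, 98.8 and 253 CPM at ZT6, without overlap (0.83 ± 0.24).

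Hcrt, the orexin precursor of the wake-promoting neurons, stood at 46.5, 32.5, 140 and 46.8 CPM after SD, against 23.1, 54.1, 59.2 and 58.5 CPM at ZT6. Its log2 fold change was 0.69 ± 0.29, with differences of 0.75 and 1.31 in index sets 1 and 2 and -0.32 in set 3. It was 0.29 without SD replicate 3, the library at 140 CPM, and 1.02 without SD replicate 4 or without ZT6 replicate 4. Pmch, whose neurons are active in sleep, stood at 514, 448, 1146 and 930 CPM after SD, against 358, 902, 645 and 690 CPM at ZT6 (0.48 ± 0.17), with differences of 0.42, 0.59 and 0.43 within sets. Nts, neurotensin, differed by 0.74 ± 0.20 and Grp, gastrin-releasing peptide, by 0.71 ± 0.27. The feeding peptides of the arcuate nucleus Agrp and Npy differed by -0.32 ± 0.68 and 0.11 ± 0.35. Pomc stood at 89.8, 74.2, 29.7 and 89.1 CPM after SD, against 1109.8 CPM in the ZT6 library with pituitary transcripts and 89.0, 24.3 and 41.9 CPM in the other ZT6 libraries. Oxt and Avp differed by 0.26 ± 0.65 and 0.05 ± 0.68.

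Of 24 tested receptors for feeding and arousal signals, 19 were above 0 and the median was 0.16. At an unadjusted p under 0.05, 4 were higher (Mc4r, Npy1r, Npy5r and Avpr1a), against 1.62% of all genes. Mc4r, the melanocortin receptor that restrains feeding, stood at 4.27, 3.57, 6.05 and 4.42 CPM after SD, against 2.66, 2.87, 2.90 and 2.49 CPM at ZT6, without overlap (0.81 ± 0.24). Npy1r and Npy5r, receptors of neuropeptide Y, differed by 0.51 ± 0.19 and 1.23 ± 0.44, and the vasopressin receptor Avpr1a by 0.55 ± 0.23. The orexin receptors Hcrtr1 and Hcrtr2 were at 0.02 ± 0.31 and 0.41 ± 0.24. None of the 20 genes of arousal transmitters and adenosine signalling passed an unadjusted p under 0.05, and their median was 0.06.

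**Figure D4:**
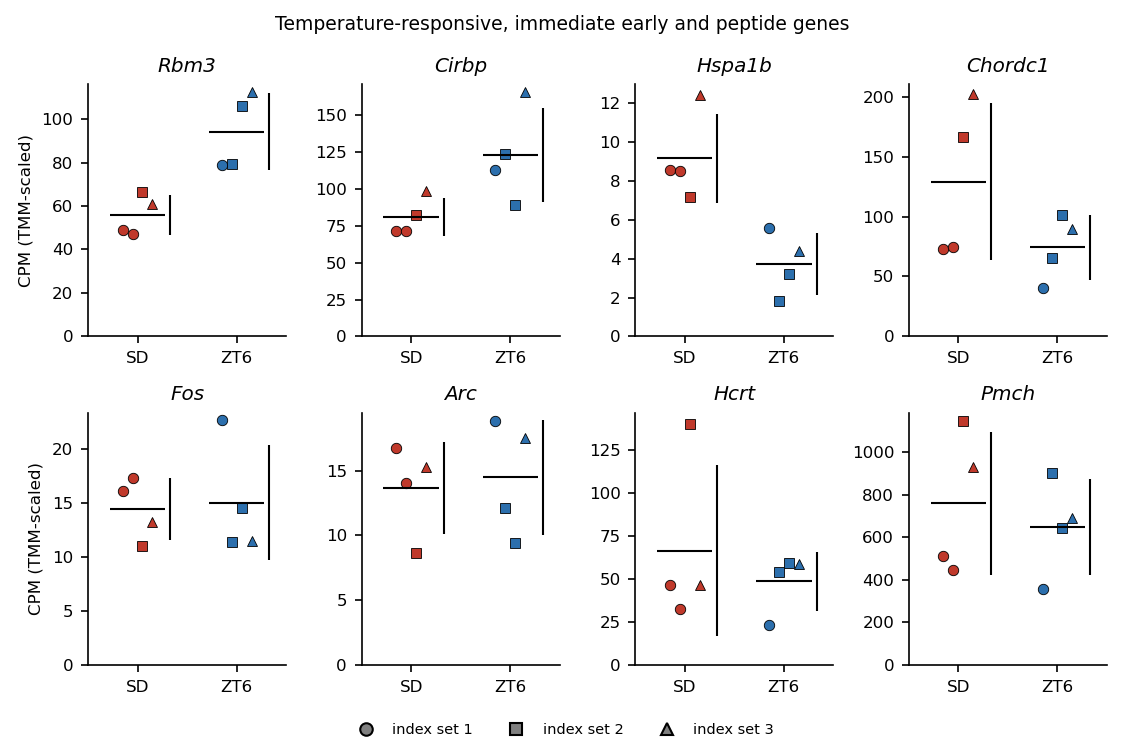
CPM (TMM-scaled, linear axis from 0) of cold-inducible (Rbm3, Cirbp), chaperone (Hspa1b, Chordc1), immediate early (Fos, Arc) and peptide (Hcrt, Pmch) genes in the 4 SD and 4 ZT6 control libraries. Points are libraries, their shape gives the index set, horizontal bars are means and vertical bars are ± 1 SD. Rbm3 and Hspa1b do not overlap between states, and Fos and Arc do.

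Metabolic, synaptic and housekeeping lists differed little. Of 31 tested glucose, lactate and glycogen genes, 24 were above 0, against 48.5% of all genes, with a median of 0.13. Slc2a1, the glucose transporter GLUT1, was the 1 higher at an unadjusted p under 0.05, against 1.62% of all genes. It stood at 95.7, 76.3, 79.2 and 134 CPM after SD, against 68.3, 68.6, 47.7 and 95.0 CPM at ZT6 (0.42 ± 0.17). Cholesterol synthesis genes had a median of -0.09 and none passed in either direction. Of 57 nuclear-encoded respiratory chain genes, 51 were above 0, against 48.5% of all genes, but the median was 0.12. Medians within index sets 1, 2 and 3 were 0.07, -0.01 and 0.61. Cycs, cytochrome c, differed by 0.43 ± 0.15. Mitochondrially encoded genes had a median of -0.28 over 13 genes. At an unadjusted p under 0.05, 1 was lower (mt-Nd4l, -0.58 ± 0.24), against 1.56% of all genes. The 77 tested ribosomal protein genes had a median of 0.01, with medians of -0.02, -0.27 and 0.74 within the 3 index sets. Of 29 tested synaptic genes, Shank3, a scaffold of excitatory synapses, stood at 47.7, 56.2, 23.2 and 13.5 CPM after SD, against 55.2, 42.8, 45.5 and 31.2 CPM at ZT6 (-0.71 ± 0.23).

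Splicing factors included 3 of 24 members higher at an unadjusted p under 0.05, against 1.62% of all genes, with a list median of 0.17. Tra2a, a splicing activator, stood at 64.0, 42.8, 69.7 and 11.6 CPM after SD, against 31.2, 25.3, 18 and 6.10 CPM at ZT6. Replicate 4 was the lowest in each state, and the differences within sets were 0.74, 1.70 and 0.92 (1.16 ± 0.24, DESeq2 adjusted p = 0.0344). Srsf3 and Srsf7, of the same family of arginine- and serine-rich factors, differed by 0.46 ± 0.14 and 0.43 ± 0.17.

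The member with the highest mean CPM in a list was often near 0, but not always. Hspa8 (0.52 ± 0.18), Hsp90b1 (0.47 ± 0.16), Pmch (0.48 ± 0.17) and Cirbp (-0.58 ± 0.16) led their lists and had an unadjusted p under 0.05. Jun (immediate early) was at 0.17 ± 0.16, Rgs4 (MAP kinase feedback) at 0.29 ± 0.14, Tsc22d1 (glucocorticoid) at 0.19 ± 0.16 and Tef (clock) at 0.17 ± 0.14. Ntsr2 (receptors) was at 0.18 ± 0.36, Adora1 (adenosine) at 0.11 ± 0.19, Cpe (prohormone processing) at 0.15 ± 0.19 and Otp (hypothalamic transcription factors) at 0.11 ± 0.14. None of these 8 passed an unadjusted p under 0.05. In the metabolic and housekeeping lists, Gapdh was at 0.17 ± 0.24, Hmgcs1 at 0.07 ± 0.18, mt-Co1 at -0.16 ± 0.27, Rpl3 at -0.09 ± 0.34, Atp5b at 0.16 ± 0.19, Snap25 at 0.22 ± 0.19 and Ddx5 at 0.20 ± 0.20. Of these, Ntsr2, Otp, Hmgcs1, mt-Co1 and Rpl3 changed sign in at least 1 other setting. Among 23 tested hypothalamic transcription factors the median was -0.04, and Dlx1, a homeobox gene of GABA neurons, was the 1 member higher at an unadjusted p under 0.05 (0.45 ± 0.19).

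Cell type markers give the tissue beside these results. Myelin markers summed to 5861 to 8646 CPM after SD and 5341 to 6613 CPM at ZT6, and astrocyte markers to 2978 to 3749 CPM after SD and 3073 to 3602 CPM at ZT6. Endothelial and pericyte markers had a median log2 fold change of -0.31 over 10 genes, of which Pdgfrb was lower at an unadjusted p under 0.05 (-0.52 ± 0.17). Tanycyte markers were below 0 in 7 of 7 genes (median -0.30, with medians of -0.04, -0.38 and 0.12 within sets) and meninges and fibroblast markers in 9 of 9 (median -0.39, with -0.15, -1.05 and -0.02 within sets), none of them at an unadjusted p under 0.05. Striatal markers had a median of 0.43 over 7 genes, with medians of 0.29, 0.63 and 0.49 within sets, so above 0 in each. Of these genes, 1 was higher at an unadjusted p under 0.05, against 1.62% of all genes. They summed to 209 to 490 CPM after SD and 156 to 393 CPM at ZT6, with overlap. Blood markers, led by haemoglobins, had a median of -0.50 and differences of -0.97, -1.19 and 1.42 within sets, so their direction turned between sets. No marker was at 0 in all 8 libraries, and the part of these differences in the gene results was not tested.

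Outside the lists, the smallest p-values among higher genes included Hr, Paqr8 and Arl4d. Hr, a nuclear receptor corepressor gene, stood at 95.1, 64.8, 61.3 and 109 CPM after SD, against 45.3, 27.5, 29.1 and 53.5 CPM at ZT6, without overlap (0.98 ± 0.17, DESeq2 adjusted p = 0.00263). Paqr8, a membrane progestin receptor gene, stood at 185, 188, 216 and 188 CPM after SD, against 124, 120, 128 and 115 CPM at ZT6 (0.70 ± 0.12, DESeq2 adjusted p = 0.00144). Its means were 194 ± 14.3 CPM after SD and 122 ± 5.78 CPM at ZT6 (SD, n = 4 each). Arl4d, a small GTPase gene, stood at 14, 8.83, 10.3 and 7.05 CPM after SD, against 3.51, 3.89, 2.13 and 3.05 CPM at ZT6 (1.6 ± 0.30, DESeq2 adjusted p = 0.00263). Glul, the glutamine synthetase of astrocytes, stood at 1494, 1425, 1760 and 2058 CPM after SD, against 976, 987, 799 and 1419 CPM at ZT6 (0.71 ± 0.16, DESeq2 adjusted p = 0.0276). All 4 genes had every SD library above every ZT6 library. P4ha1, a collagen prolyl hydroxylase subunit gene, differed by 0.77 ± 0.17 (DESeq2 adjusted p = 0.0497). Gm14117, an annotated processed pseudogene, had 94 counts over the 4 SD libraries and 0 over the 4 ZT6 libraries, at least 26.9-fold higher against a floor of 3 counts over the ZT6 group. A processed pseudogene can share reads with its parent gene, so this value is uncertain. Gm26755, a lincRNA, differed by 0.70 ± 0.15.

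Among lower genes, Tmem254c stood at 8.51, 13.1, 5.59 and 6.01 CPM after SD, against 21.8, 12.5, 14.1 and 15.8 CPM at ZT6 (-1.20 ± 0.21, DESeq2 adjusted p = 0.00263), with overlap through SD replicate 2, and it has near-identical copies, so its counts are uncertain. Notch1, the receptor of the Notch pathway, differed by -0.70 ± 0.17 and Slc6a6, the taurine transporter gene, by -0.72 ± 0.17. Mir9-3hg, the host transcript of a miR-9 copy, stood at 10.3, 10.3, 8.49 and 6.76 CPM after SD, against 17.9, 18, 11.8 and 16.4 CPM at ZT6, without overlap (-0.93 ± 0.21). Ano6, Fzd10, Pla2g4e and Slc2a2 differed by -0.57 ± 0.14, -1.32 ± 0.32, -1.30 ± 0.32 and -1.69 ± 0.42. The other 5 genes that DESeq2 called lower divided the SD libraries. Igdcc4, for example, stood at 27.6, 24.7, 2.48 and 1.79 CPM after SD, against 36.8, 34.3, 49.5 and 34.2 CPM at ZT6. Dock6 stood at 13.8, 16, 0 and 0 CPM after SD, against 15.7, 4.76, 16.1 and 7.69 CPM at ZT6. In these, and in Ccdc14, Amy2a5 and Npas1, SD replicates 3 and 4 lay far below replicates 1 and 2, which are of index set 1. Amy2a5 and Npas1 were low in all SD libraries, at most 0.733 and 0.628 CPM.

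The same comparison in mutant mice rests on fewer libraries, 4 after SD and 2 at ZT6, in a fit of 17 libraries. No gene's response differed between the genotypes at an adjusted p under 0.05 among 21346 genes (edgeR interaction test, 0.0% called), and 846 did at an unadjusted p under 0.05 (3.96%). DESeq2 called 43. The smallest p belonged to Prl, a pituitary hormone gene (edgeR adjusted p = 0.0568), at 2171 CPM in mutant SD replicate 1, 138 CPM in mutant SD replicate 4 and 50.7 CPM in control ZT6 replicate 1, and at 0 to 3.20 CPM in the other 14 libraries of that fit. Its log2 fold change was 7.80 ± 1.46 in mutant mice and -5.76 ± 0.89 in control mice, a difference of 13.56 ± 1.80. The libraries high in Prl were kept in this fit and enter the genotype values below. Their part in the 43 DESeq2 calls was not tested. Sgk1 stood at 30.2, 42.5, 59.8 and 118 CPM after SD and at 28.7 and 21.6 CPM at ZT6 in mutant mice, with a log2 fold change of 1.32 ± 0.43, against 2.26 ± 0.35 in control mice in the same fit. The difference between genotypes was -0.94 ± 0.52 (edgeR unadjusted p = 0.0892, adjusted p = 0.982). Paqr8 differed by 0.80 ± 0.15 in mutant mice and 0.73 ± 0.12 in control mice, and Rbm3 by -1.05 ± 0.16 and -0.69 ± 0.14 in the same order. The glucocorticoid list had a median of 0.63 in mutant mice and 0.60 in control mice, and the cytosolic chaperones 0.19 in mutant mice and 0.50 in control mice. Neuropeptides had a median of -0.1 in mutant mice (9 of 29 above 0) and 0.17 in control mice (19 of 29). Of these 29, 5 had a lower response in mutant mice at an unadjusted p under 0.05 (edgeR interaction test), against 1.7% of all genes. The same held for 3 of 24 receptors, and no member of either list was called. Stip1 was at 0.19 ± 0.16 in mutant mice and 0.75 ± 0.13 in control mice, with an interaction of -0.56 ± 0.21 (unadjusted p = 0.0162, adjusted p = 0.982).

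**Figure D5:**
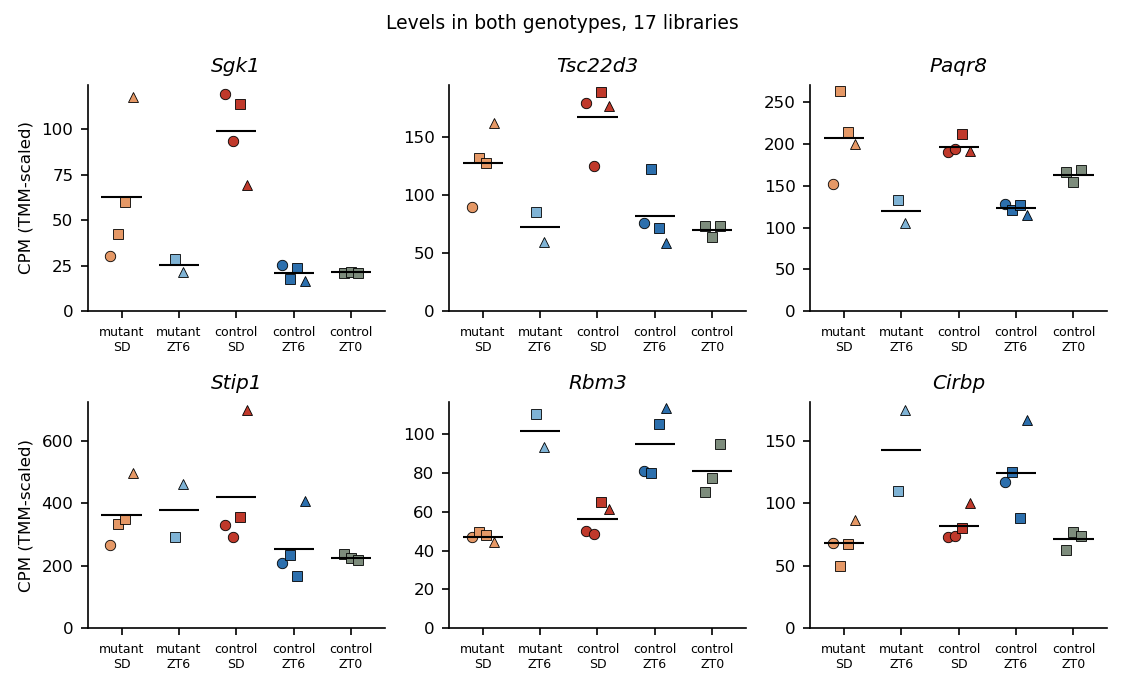
CPM (TMM-scaled over 17 libraries, linear axis from 0) of 6 genes in mutant SD, mutant ZT6, control SD, control ZT6 and control ZT0 mice. Points are libraries, their shape gives the index set (circle, square and triangle for sets 1, 2 and 3), and bars are means. Mutant SD libraries for Sgk1 spread from 30.2 to 118 CPM, while Rbm3 after SD lies below its ZT6 values in both genotypes.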

How the data were processed

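Hypothalamic RNA of 22 samples was measured by sequencing of polyadenylated RNA, and 8 control libraries are compared here. Per the labels' protocols, the authors trimmed reads with Trimmomatic 0.38, quantified transcripts with kallisto 0.44.0 on Ensembl 79, and imported them per gene with tximport. Deposited values are expected counts (estimated counts per gene, already whole numbers and not normalised) for 41456 gene IDs after 5 repeated lines were dropped. Per the labels' protocols, the authors used DESeq2, an adjusted p limit of 0.05 and a 2-fold limit. Reads carry no molecular identifiers, so floors of 3 counts (0.0639 to 0.205 CPM in the 8 libraries) cover counting error only. Replicates differed by more than counting error (a chi-square of at least 42.51 for each degree of freedom in any pair).

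Tests used edgeR 4.0.16 in R 4.3.3, with TMM normalisation, filterByExpr (min.count 10, min.total.count 15), and two-sided quasi-likelihood F tests with group and index set as terms over 18382 genes. P-values were adjusted by Benjamini-Hochberg and called under 0.05. The scripts were tested on simulated counts with known fold changes. These had the same dispersion in all genes and no index set effect, so they do not show how many real differences the fit misses. Each SE was derived as the size of the log2 fold change divided by the root of F. Group means are TMM-scaled CPM ± SD. The genotype interaction was fitted on 17 libraries, leaving out the mutant ZT0 libraries and mutant ZT6 replicates 2 and 3, which are shallow or hold little neural RNA. DESeq2 1.42.0 (run after the same filter), limma-voom (limma 3.58.1), RLE factors, no filter, no covariate, other sets of libraries and leaving out each library were alternatives. Values within an index set are differences of mean log2 CPM. Coordinates are those of GENCODE M21 (GRCm38), in which 41193 IDs were found. Promoter sequences are from RefSeq (GRCm38.p6, 32851 windows of 27025 genes). Where a symbol stands on more than 1 ID, the ID with more counts was used.

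Members, lists and naming rule were chosen with earlier results of these data known. The rule names a fixed set (Fos, Arc, Homer1, Egr2, Nr4a1, Hspa5, Hspa1b, Cirbp, Rbm3, Per1, Per2, Dbp, Sgk1, Tsc22d3, Hcrt, Pmch and Snhg14), the 10 smallest p-values on each side, called genes ranked by size (10 a side, mean 1 CPM or more), up to 4 called members of each list, and the member of each list with the highest mean CPM. The genes that DESeq2 called, other list members and the promoter stretches were chosen after their values were seen. One gene that the rule names is not reported here.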

Additional observations from a re-analysis of the deposited data

Results flagged for a closer look

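In groups of 4 libraries, 19 of 194 groups tested had a single library far from the other 3 by Dixon's criterion, where chance gives about 1 in 20 groups. After SD, replicate 4 stood apart for Egr2 (1.09 CPM), Pdia4 (115 CPM), Tef, a clock-controlled factor (203 CPM), Vgf (504 CPM) and the adenosine receptor Adora1 (151 CPM). It also stood apart in the summed markers of astrocytes (3749 CPM), blood (1429 CPM) and striatum (490 CPM). Replicate 3 after SD stood apart for Hcrt (140 CPM), Paqr8 (216 CPM), the glucose transporter Slc2a2 (0.462 CPM) and the ATP synthase subunit Atp5b (1181 CPM).

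At ZT6, replicate 1 stood apart for Prl (49.2 CPM) and for the summed pituitary markers (642 CPM), and at the low end for Hcrt (23.1 CPM). ZT6 replicate 3 stood apart for Homer1 (41.3 CPM), Igdcc4 (49.5 CPM) and Npy5r (5.86 CPM), and ZT6 replicate 4 for Avpr1a (6.51 CPM). SD replicate 4 and ZT6 replicate 4 are the libraries of index set 3.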

How the results depend on the processing

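No paired analysis was possible because the labels give no replicate numbers that the groups share. Against 0 genes called higher and 0 lower, dropping the low-count filter gave 1 higher (Sgk1) and 1 lower (1700047I17Rik2, which has near-identical copies), DESeq2 with the index set gave 13 higher and 6 lower, DESeq2 with no covariate 4 higher, limma-voom 1 higher, and the 11 control libraries 1 higher. Leaving out each library gave 0 to 1 higher and 0 lower, the 1 being Sgk1 without ZT6 replicate 2. For the genotype interaction, against 0 genes, no filter gave 3, DESeq2 43, and leaving out each control library 0 to 2. RLE factors, no covariate, 17 or 22 libraries, the 2-fold limit and leaving out index set 3 left the counts of SD at 0. The number of genes at an unadjusted p under 0.05 ranged from 170 without SD replicate 3 to 1695 without ZT6 replicate 2, against 583.

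Of 82 named genes, 73 kept their sign in all settings, and 31 of 1476 gene-setting pairs turned it. With no covariate, Homer1 was at -0.10, Per1 at 0.12, Hmgcs1 at -0.06 and mt-Co1 at 0.02, and with DESeq2 and no covariate at -0.10, 0.12, -0.06 and 0.01. With 22 libraries they were at -0.06, 0.15, -0.03 and 0.04. Without index set 3, Ntsr2 was at -0.12 and mt-Co1 at 0.05. Leaving out each library gave -0.05 to 0.30 for Homer1, -0.55 to 0.38 for Nr4a1, -0.11 to 0.07 for Per1, -1.05 to 0.04 for Snhg14, -0.12 to 0.48 for Ntsr2, -0.02 to 0.20 for Otp, -0.10 to 0.14 for Hmgcs1, -0.37 to 0.05 for mt-Co1 and -0.35 to 0.18 for Rpl3. The cause was not tested. The median SE of a log2 fold change was 0.633 for genes under 1 CPM and 0.192 at 10 CPM or more, and the part of depth in this was not tested.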
